A study of Caenorhabditis elegans with 6 samples.

Results

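The genes described here encode lysozymes, saposin-like proteins and small defence peptides of the nematode *Caenorhabditis elegans*. They were chosen by name alone, as the protein-coding genes in the deposited count table whose symbol begins with lys, ilys, spp, abf, cnc, fip or fipr followed by a number, and this gave 92 of 20191 protein-coding genes in 7 families. All were read in mRNA-seq of whole dauer larvae of 2 genotypes, with 3 libraries per genotype. Both genotypes carried *daf-7(e1372)*, a temperature-sensitive allele in a TGF-beta ligand that drives larvae into dauer. The *daf-16(0)* larvae carried in addition *daf-16(mgDf50)*, a deletion in the gene for the FOXO transcription factor DAF-16, and the larvae with *daf-7(e1372)* alone, strain CB1372, are called control. The source labels name the *daf-16(0)* strain VT2127 in one field and VT2317 in another, and which is right was not settled here. Embryos of both strains were raised at 24 °C for 52 h before dauer larvae were collected by hand because part of the *daf-16(0)* animals do not enter dauer. Both genotypes are thus represented by picked animals with a mutant *daf-7*, and neither strain is wild type. The study's methods give 2 biological replicates per strain, and its own comparison used replicates 2 and 3 of *daf-16(0)* with replicates 1 and 2 of the control. These 4 libraries were compared first here, and all 6 libraries are given beside them. The study's methods also describe a search for outlier samples by read quality and principal components. They do not name the outliers, so whether the libraries outside its comparison were left out as such is not stated.

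Lysozymes cut the peptidoglycan of bacterial cell walls. *C. elegans* has protist-type lysozymes (the *lys* genes) and invertebrate-type lysozymes (the *ilys* genes), and several of them are made in the intestine, where they serve both the digestion of bacteria and defence. Saposin-like proteins of the *spp* family include caenopores, small proteins that open pores in membranes. The *abf* genes encode defensin-like antibacterial factors, the *cnc* genes encode caenacins, glycine-rich peptides known from the epidermis, and the *fip* and *fipr* genes encode small fungus-induced proteins and their relatives. In adult worms with reduced insulin signalling, *lys-7*, *lys-8* and *spp-1* are textbook genes whose expression depends on *daf-16*. Dauer larvae do not feed.

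The libraries held between 8103772 and 17808548 counts on protein-coding genes. At these depths a floor of 3 counts corresponds to between 0.154 and 0.426 CPM (counts per 1000000 protein-coding counts, scaled with edgeR's TMM factors), and such floors cover counting error only. The deleted gene, *daf-16*, stood at 40.3, 63.5 and 43.0 CPM in *daf-16(0)* replicates 1, 2 and 3 and at 399.7, 355 and 198 CPM in control replicates 1, 2 and 3, so its level separated the genotypes in the labelled direction. Control replicate 3 stood apart from the other 5 libraries on the principal component 2 (102.7 against -41.4 to 9.40). The summed level of 6 yolk genes, which adult intestine expresses, was 18360 CPM in that library against 322 and 124 CPM in control replicates 1 and 2, and between 13850 and 25620 CPM in the *daf-16(0)* libraries. Control replicate 1 had the highest share of ribosomal RNA, 8.64% against 0.0600 to 1.44% in the others. The labels name no batch. Values are listed for replicates 1, 2 and 3 in that order. Levels per exon length, and ranks by them, are means over the 3 libraries of a genotype, and single libraries gave other orders in most families.

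The defence genes moved in both directions. A gene was called when edgeR's quasi-likelihood test gave a Benjamini-Hochberg adjusted p of at most 0.05 over all genes tested and the change was at least 2-fold. Of the 92 genes, 65 passed the filter on low counts and were tested, and a gene can pass it through the genotype in which it is high. In 4 libraries 7 of the 65 were called higher in *daf-16(0)* (10.8%, against 5.37% of all genes tested) and 7 lower (10.8%, against 9.59%), and 51 were not called. In 6 libraries 8 were called higher (12.3%, against 5.06% of all genes tested) and 8 lower (12.3%, against 7.39%). The share called higher was thus above that of all genes in both comparisons, and the share called lower was near it in 4 libraries and above it in 6. In both comparisons 5 genes were higher and 6 lower, and 19 genes were called in at least 1 of them. The same shares over all genes tested apply to each family and list below, most of which hold few genes. Levels of 22 of the 65 genes in all 3 *daf-16(0)* libraries lay above all 3 controls, and those of 11 of the 65 lay below. The same held for 21.3% and 19.6% of all genes tested. The share lying above was thus larger than that of all genes, and the share lying below was slightly smaller. The median log2 fold change of the 65 genes was 0.49 in 4 libraries and 0.35 in 6, against 0.11 and 0.09 over all genes tested. Without control replicate 1 the 4-library median was 1.18 and the number called higher was 20, and without *daf-16(0)* replicate 2 or 3 that number was 3. In 6 libraries the number called higher was 3, 2 and 3 without *daf-16(0)* replicates 1, 2 and 3 and 5 without control replicate 2, and the number called lower was 4 without *daf-16(0)* replicate 2. The share called over all genes tested is not given for these refits, so their numbers are no result about the members.

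The summed level of the 92 genes was 5098, 5172 and 5339 CPM in *daf-16(0)* and 3191, 2055 and 2683 CPM in control, with no overlap between genotypes. Most of this level came from the *lys* and *spp* families. The *lys* genes summed to 1882, 2157 and 2178 CPM in *daf-16(0)* and to 940.0, 579 and 539.8 CPM in control. The *spp* genes summed to 2359, 2333 and 2527 CPM and to 1371, 1061 and 1516 CPM. Both sums were higher in every *daf-16(0)* library than in any control library. So was the *ilys* sum, at 602, 373 and 329 CPM against 107, 101 and 173 CPM. It rested on *ilys-5* (286, 313 and 290.4 CPM in *daf-16(0)*) and, in *daf-16(0)* replicate 1, also on *ilys-3* (265 CPM). The median log2 fold change of the *ilys* genes tested was -0.77 in 4 libraries and -0.115 in 6. The *cnc* sums ran the other way, with 55.1, 54.6 and 59.8 CPM in *daf-16(0)* and 221, 128 and 151 CPM in control. The *fip*, *fipr* and *abf* sums overlapped between genotypes. No test was made on these sums. The summed level of 8 intestinal marker genes was likewise higher in every *daf-16(0)* library (2758 to 4017 CPM) than in any control (1235 to 1927 CPM), and its part in the sums was not tested. In whole larvae, fewer cells of a type and less RNA per cell cannot be told apart.

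**Figure D1:**
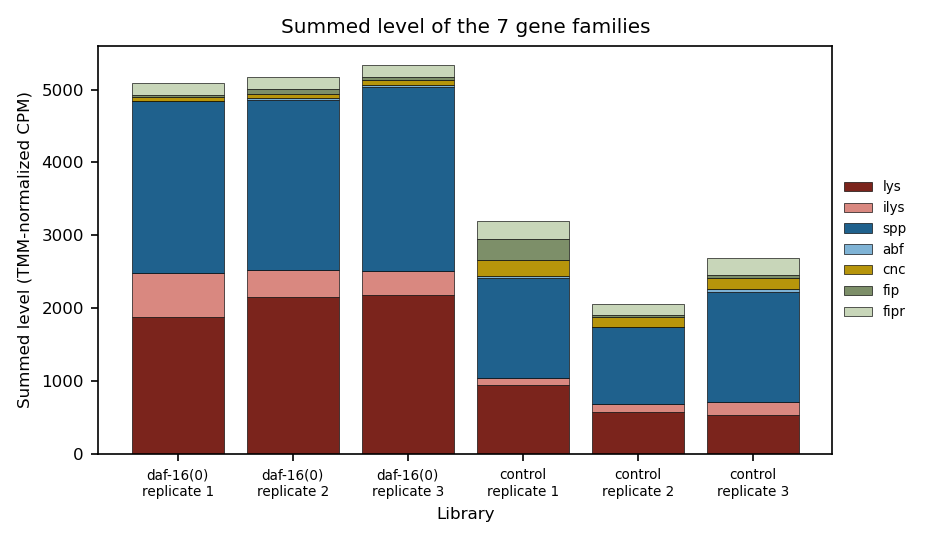
Summed level of each gene family in each library, in TMM-normalized CPM not divided by gene length, as stacked bars that start at 0. The *daf-16(0)* libraries sum to between 5098 and 5339 CPM and the control libraries to between 2055 and 3191 CPM, with the *lys* (dark red) and *spp* (dark blue) segments taller in each *daf-16(0)* bar.

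Among the 9 *lys* genes tested, 3 rose (33.3%, against 5.37% of all genes tested) and 1 fell (11.1%, against 9.59%) in 4 libraries. In 6 libraries 5 rose (55.6%, against 5.06%) and 1 fell (11.1%, against 7.39%). *lys-1*, an intestinal lysozyme (WBGene00003090, chromosome V, 10277827 to 10279127, forward strand), stood at 755, 999 and 1192 CPM in *daf-16(0)* and at 255, 155 and 151 CPM in control. Every *daf-16(0)* library lay well above every control library. The gene rose 5.43-fold in 4 libraries (log2 fold change 2.44, SE 0.38, adjusted p = 0.013) and 5.25-fold in 6 (log2 fold change 2.39, SE 0.38, adjusted p = 0.011), a call lost in 2 of 11 alternatives, 1 of them without *daf-16(0)* replicate 2 (edgeR adjusted p = 0.0517, with 7.6e-10 in DESeq2 to 0.0639 in edgeR over the 11). *lys-4* (WBGene00003093, chromosome IV, 11621443 to 11623174, reverse strand), another lysozyme of this type, stood at 562, 302 and 181 CPM in *daf-16(0)* and at 30.8, 14.2 and 26.1 CPM in control. Its levels in *daf-16(0)* spread more widely for their size than those of *lys-1*, yet the lowest of them was above the highest control. *lys-4* rose 10.9-fold in 4 libraries (log2 fold change 3.45, SE 0.50, adjusted p = 0.0111), with a log2 fold change of 4.09 without control replicate 1, and 14.7-fold in 6 (log2 fold change 3.88, SE 0.53, adjusted p = 0.00672).

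*lys-8* (WBGene00003097, chromosome II, 5586165 to 5587651, forward strand) is among the textbook *daf-16*-dependent lysozymes. It stood at 316, 478 and 462 CPM in *daf-16(0)* and at 167, 68.3 and 135 CPM in control. The *daf-16(0)* libraries were all higher, with *daf-16(0)* replicate 1 the lowest of them. It rose 4.07-fold in 4 libraries (log2 fold change 2.02, SE 0.47, adjusted p = 0.037) and 3.38-fold in 6 (log2 fold change 1.76, SE 0.40, adjusted p = 0.0307). The call in 4 libraries was lost without *daf-16(0)* replicate 2 (adjusted p = 0.0962) or 3 (adjusted p = 0.0793) in edgeR. Over 12 alternatives the adjusted p ran from 0.00017 in DESeq2 to 0.0962 in edgeR, and without control replicate 1 the log2 fold change was 2.79. In 6 libraries it was lost whichever *daf-16(0)* library was left out, and without control replicate 2. The end of *lys-8* overlaps C17G10.13 on the other strand, which had 65 to 145 counts per library. The library kit does not mark strand, so reads in such overlaps cannot be told apart.

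*lys-5* and *lys-6* (WBGene00003094 and WBGene00003095) lie beside *lys-4*, and their expected counts were not whole numbers, which shows that reads were divided between similar sequences, so the level of each is uncertain. *lys-5* stood at 12.01, 3.85 and 1.45 CPM in *daf-16(0)* and had no counts in any control library, at least 13.6-fold higher in *daf-16(0)* over 6 libraries against the floor of 3 counts per library. *lys-6* stood at 8.09, 3.08 and 2.06 CPM in *daf-16(0)* and had 1 count over the 3 control libraries. Taken as a pair, they had 308, 63 and 46 counts in *daf-16(0)* and 1, 0 and 0 in control. *daf-16(0)* replicate 1 held most of these counts. By edgeR both were called higher in 6 libraries only (adjusted p = 0.0351 and 0.0447, against 0.0759 and 0.0969 in 4). Both calls were lost whichever library other than control replicate 3 was left out. In 4 libraries DESeq2 called *lys-5* (adjusted p = 0.0213) and not *lys-6* (adjusted p = 0.0582).

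*lys-3* (WBGene00003092, chromosome V, 10282204 to 10283544, reverse strand), a lysozyme gene next to *lys-1* and *lys-2*, was the *lys* gene that fell. It stood at 21.5, 15.5 and 17.2 CPM in *daf-16(0)* and at 131, 217 and 105 CPM in control. The highest *daf-16(0)* library was far below the lowest control. It fell 10.5-fold in 4 libraries (log2 fold change -3.40, SE 0.38, adjusted p = 0.00666) and 8.36-fold in 6 (log2 fold change -3.06, SE 0.37, adjusted p = 0.00496), and the call held in every alternative tried for both comparisons. Between them lies *lys-2*, which stood at 133, 152 and 174 CPM in *daf-16(0)* and at 89.1, 21.3 and 13.8 CPM in control and was not called (log2 fold change 1.59, SE 0.62, adjusted p = 0.124).

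*lys-7*, the best known *daf-16*-dependent lysozyme of adult worms (WBGene00003096, chromosome V, 3481421 to 3482600, reverse strand), was not called. It stood at 70.8, 201 and 146 CPM in *daf-16(0)* and at 266, 103 and 99.8 CPM in control. The 2 genotypes overlapped, and the highest and the lowest library of all were a control and a *daf-16(0)* library. Its log2 fold change was -0.06 (SE 0.48) in 4 libraries and -0.17 (SE 0.52) in 6, and its sign depended on single libraries. Divided by exon length, the control level of *lys-7* held rank 2 in the family after *lys-1*, at 173 against 195 CPM per kb. In *daf-16(0)* it held rank 5, at 154 CPM per kb, behind *lys-1* (1024), *lys-4* (442), *lys-8* (432) and *lys-2* (164). *lys-3* went from rank 3 to rank 6 on the same scale, with 135 CPM per kb in control and 16.1 in *daf-16(0)*, and *lys-4* from rank 6 to rank 2. Neighbours in these orders were not tested against each other. *lys-10* was tested and not called, and *lys-9* had too few counts to be tested.

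Of the 6 invertebrate-type lysozymes 5 were tested, 1 rose and 1 fell in either comparison. *ilys-5* (WBGene00017691, chromosome X, 6533493 to 6536840, reverse strand) stood at 286, 313 and 290.4 CPM in *daf-16(0)* and at 39.6, 13.2 and 44.3 CPM in control. The *daf-16(0)* libraries were close to each other and all above the controls. It rose 11.7-fold in 4 libraries (log2 fold change 3.54, SE 0.55, adjusted p = 0.0131) and 9.14-fold in 6 (log2 fold change 3.19, SE 0.47, adjusted p = 0.00879). Its log2 fold change in 4 libraries was 4.52 without control replicate 1 and 2.95 without control replicate 2. *ilys-6* (WBGene00020982, chromosome IV, 4062567 to 4063673, reverse strand) had 0 counts in all 3 *daf-16(0)* libraries and 14.1, 21.3 and 21.1 CPM in control (99, 187 and 411 counts). It was therefore present in every control and not detected in any *daf-16(0)* library, at least 53.6-fold lower in 4 libraries and at least 57.1-fold lower in 6 against the floor of 3 counts per library. edgeR's adjusted p was 0.00893 in 4 libraries and 0.00486 in 6. The calls of *ilys-5* and *ilys-6* held in every alternative.

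*ilys-3* (WBGene00016670, chromosome IV, 2464456 to 2465401, forward strand), a lysozyme known to act on ingested bacteria, had the highest control level of its family per exon length (51.03 CPM per kb). It stood at 265, 22.1 and 3.66 CPM in *daf-16(0)* and at 20.01, 24.3 and 31.4 CPM in control. A single library, *daf-16(0)* replicate 1, was several times above all the others, with 4061 counts against 201 and 48 in replicates 2 and 3. The log2 fold change was -0.77 (SE 0.79) in 4 libraries, which leave out that replicate, and 1.94 (SE 1.21) in 6, and the gene was not called in either. *ilys-2* and *ilys-4* were not called, and *ilys-1* had no counts in any library.

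**Figure D2:**
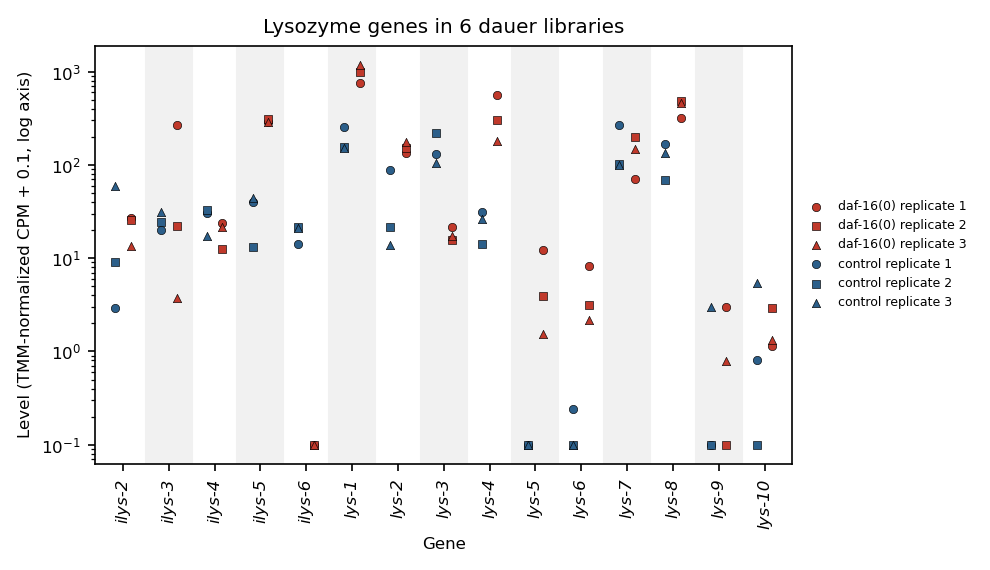
Level of each counted *lys* and *ilys* gene in each library, in TMM-normalized CPM plus 0.1 on a log axis, so that a point at the bottom of the plot is a library with no counts. Red points are *daf-16(0)* and blue points control, with a circle, square and triangle for replicates 1, 2 and 3. *lys-1*, *lys-4*, *lys-8* and *ilys-5* show 3 red points above 3 blue ones, *lys-3* and *ilys-6* the reverse, and *lys-7* an overlap.

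Of the 23 saposin-like genes 18 were tested. In 4 libraries 3 rose (16.7%, against 5.37% of all genes tested) and 2 fell (11.1%, against 9.59%). In 6 libraries 2 rose (11.1%, against 5.06%) and 2 fell (11.1%, against 7.39%). *spp-5*, which encodes the pore-forming caenopore-5 (WBGene00004990, chromosome X, 7319935 to 7320384, reverse strand), had the highest mean level per exon length of its family in both genotypes, 702 CPM per kb in control and 2268 in *daf-16(0)*, although *spp-14* was higher in control replicate 2. It stood at 832, 715 and 970.2 CPM in *daf-16(0)* and at 250.1, 110.1 and 419 CPM in control. All *daf-16(0)* libraries were higher, and control replicate 3 was the highest control. It rose 4.76-fold in 4 libraries (log2 fold change 2.25, SE 0.47, adjusted p = 0.0289), a call lost without *daf-16(0)* replicate 2 or 3 (edgeR adjusted p 0.0558 and 0.0792) and in 6 libraries (log2 fold change 1.69, SE 0.49, adjusted p = 0.0608). Over 12 alternatives in 4 libraries the adjusted p ran from 1.2e-05 in DESeq2 to 0.0792 in edgeR, and without control replicate 1 the log2 fold change was 2.94. In 6 libraries *spp-5* was called without control replicate 3 (log2 fold change 2.24, edgeR adjusted p = 0.0161).

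*spp-14* (WBGene00004999, chromosome X, 7725955 to 7726383, forward strand), a saposin-like gene next in mean level per exon length after *spp-5*, stood at 310.4, 366 and 456 CPM in *daf-16(0)* and at 132, 144 and 266 CPM in control. The controls were close in replicates 1 and 2 and higher in replicate 3, and all lay below the *daf-16(0)* libraries. It rose 3.01-fold in 4 libraries (log2 fold change 1.59, SE 0.31, adjusted p = 0.0232) and was not called in 6 (log2 fold change 1.06, SE 0.37, adjusted p = 0.0952). The call in 4 libraries was also lost without *daf-16(0)* replicate 2 or 3. With control replicate 3 left out of the 6 libraries the gene was called (log2 fold change 1.46, edgeR adjusted p = 0.0185). *spp-18* (WBGene00005003, chromosome IV, 9593667 to 9594425, forward strand) stood at 61.03, 51 and 51.7 CPM in *daf-16(0)* and at 12.2, 4.79 and 16.9 CPM in control. Its *daf-16(0)* libraries lay close together and above all controls. It rose 6.18-fold in 4 libraries (log2 fold change 2.63, SE 0.50, adjusted p = 0.0221) and 4.8-fold in 6 (log2 fold change 2.26, SE 0.47, adjusted p = 0.0232), and the first call was lost without *daf-16(0)* replicate 2 or 3, the second whichever *daf-16(0)* library was left out and without control replicate 1. Without control replicate 1 its log2 fold change in 4 libraries was 3.43.

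*spp-3* (WBGene00004988, chromosome X, 7314969 to 7315353, reverse strand), a saposin-like gene in the same cluster as *spp-5*, stood at 285, 272 and 248 CPM in *daf-16(0)* and at 69.97, 12.99 and 73.2 CPM in control. Control replicate 2 was the lowest library, and the *daf-16(0)* libraries were all above the controls. It was called in 6 libraries (log2 fold change 2.37, SE 0.59, adjusted p = 0.0408) and not in 4 (log2 fold change 2.68, SE 0.73, adjusted p = 0.0575), and the 6-library call was lost whichever *daf-16(0)* library was left out and without control replicate 1. In 4 libraries its log2 fold change was 4.33 without control replicate 1 and 1.92 without control replicate 2. DESeq2 called it higher in 4 libraries (adjusted p = 0.00046), as did edgeR with RLE scaling (adjusted p = 0.0479). *spp-1*, which encodes caenopore-1 (WBGene00004986, chromosome III, 10355122 to 10355982, reverse strand), stood at 193, 86.7 and 94.1 CPM in *daf-16(0)* and at 81.8, 26.1 and 45.8 CPM in control. The lowest *daf-16(0)* library was only slightly above the highest control, and *daf-16(0)* replicate 1 was the highest of all. The gene was not called in 4 libraries (log2 fold change 0.78, SE 0.52, adjusted p = 0.319) or in 6 (log2 fold change 1.28, SE 0.50, adjusted p = 0.127). Without control replicate 1 it was called higher in 4 libraries (log2 fold change 1.80, edgeR adjusted p = 0.0150), and without control replicate 2 the log2 fold change was 0.17, with adjusted p between 0.0150 and 0.819 over 12 alternatives. It overlaps *umps-1* on the same strand, so reads in the overlap cannot be assigned with certainty.

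*spp-11* and *spp-20* fell to levels near the counting floor. *spp-11* (WBGene00004996, chromosome II, 6405391 to 6407379, reverse strand) stood at 0.0653, 0.22 and 1.07 CPM in *daf-16(0)*, from 1, 2 and 14 counts, and at 99.6, 72.4 and 136 CPM in control. The genotypes were far apart, and *daf-16(0)* replicate 3 was the highest of its genotype. It was 121-fold lower in 4 libraries (log2 fold change -6.92, SE 0.65, adjusted p = 0.00552) and 221-fold lower in 6 (log2 fold change -7.79, SE 0.84, adjusted p = 0.00345). Without *daf-16(0)* replicate 3 the log2 fold change was -8.47 in 4 libraries and -9.55 in 6, and without *daf-16(0)* replicate 2 it was -6.27 in 4 libraries. *spp-20* (WBGene00005005, chromosome V, 6557767 to 6558310, reverse strand) stood at 0.0653, 0.11 and 0 CPM in *daf-16(0)*, from 1, 1 and 0 counts, and at 36.2, 54.9 and 28.6 CPM in control. Every control library had at least 255 counts. The ratio of control to *daf-16(0)* over the pooled counts of 6 libraries was 688 (exact 95% counting interval 190.0 to 5683), and edgeR's adjusted p was 0.00506 in 4 libraries and 0.00106 in 6. Both calls held in every alternative. *spp-20* lies within *twk-10*, a potassium channel gene on the other strand that had 9 to 81 counts per library.

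The remaining saposin-like genes that were tested ranged from -3.57 (*spp-19*) to 2.24 (*spp-4*) in log2 fold change over 4 libraries and were not called. *spp-10*, ranked 3 in level per exon length in control, had 269.6, 369.8 and 298 CPM in *daf-16(0)* and 367, 398 and 255 CPM in control, and its genotypes overlapped. *spp-4*, *spp-8*, *spp-16* and *spp-22* had all 3 *daf-16(0)* libraries above all 3 controls without being called. *spp-17* was high in *daf-16(0)* replicates 2 and 3 and low in replicate 1, at 7.77, 74.6 and 63.5 CPM, against 37.5, 18.6 and 27.1 CPM in control. *spp-6*, *spp-7*, *spp-9*, *spp-12* and *spp-21* had too few counts to be tested.

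**Figure D3:**
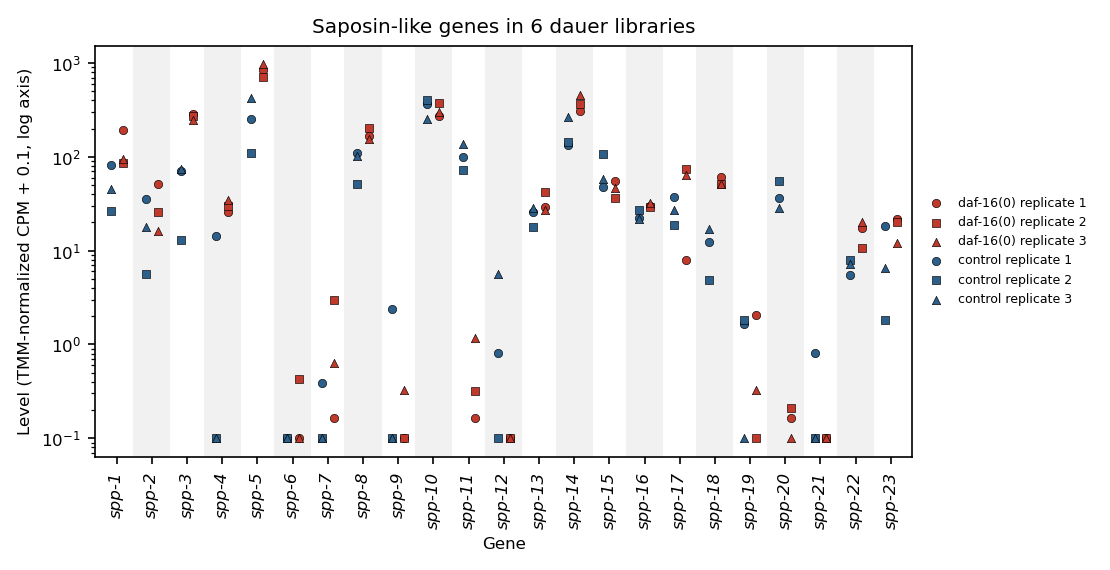
Level of each *spp* gene in each library, in TMM-normalized CPM plus 0.1 on a log axis, with red for *daf-16(0)*, blue for control and a circle, square and triangle for replicates 1, 2 and 3. The blue points of *spp-11* and *spp-20* sit at or above 28.6 CPM and their red points near the bottom of the plot, while *spp-3*, *spp-5*, *spp-14* and *spp-18* show the red points higher.

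Of the defensin-like *abf* genes 3 of 6 were tested and 0 were called in either comparison, with 0 at an unadjusted p below 0.05 and 0 by DESeq2. *abf-2*, an antibacterial peptide known from the pharynx (WBGene00000013, chromosome I, 3885548 to 3885905, reverse strand), had the highest control level of the family. It stood at 1.5, 9.78 and 9.23 CPM in *daf-16(0)* and at 6.96, 5.81 and 20.01 CPM in control. *daf-16(0)* replicate 1 was the lowest and control replicate 3 the highest, and these are the libraries that the 4-library comparison leaves out. The log2 fold change was 0.59 (SE 0.57) in 4 libraries and -0.68 (SE 0.82) in 6. *abf-2* lies within C50F2.2 on the other strand. *abf-5* and *abf-6* were likewise lowest in *daf-16(0)* replicate 1 among the *daf-16(0)* libraries, *abf-1* was counted and not tested, and *abf-3* and *abf-4* had no counts.

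Of the 11 caenacin genes 8 were tested, and 2 fell in 4 libraries and 3 in 6. None was called higher (0 at an unadjusted p below 0.05, 0 by DESeq2). *cnc-9* (WBGene00044548, chromosome V, 7399904 to 7400199, reverse strand) stood at 0.392, 1.21 and 1.45 CPM in *daf-16(0)* and at 23.6, 34.5 and 11.7 CPM in control. The genotypes were separated by several times the level of the highest *daf-16(0)* library. It fell 21.3-fold in 4 libraries (log2 fold change -4.42, SE 0.53, adjusted p = 0.00712) and 22.9-fold in 6 (log2 fold change -4.51, SE 0.73, adjusted p = 0.0114), although the 6-library call was lost without *daf-16(0)* replicate 2. *cnc-11* (WBGene00044900, chromosome V, 1442588 to 1442876, forward strand) had 11, 0 and 0 counts in *daf-16(0)* and 4.4, 15.4 and 39.5 CPM in control. Its controls differed among themselves by almost an order of magnitude, with replicate 3 the highest. It was at least 30-fold lower in 4 libraries, against the floor, with an edgeR adjusted p of 0.0234, and lower in 6 (log2 fold change -6.19, SE 1.48, adjusted p = 0.0353). The *daf-16(0)* counts in the 6-library fit all came from replicate 1. Without that replicate the fit, then against 0 counts, gave -10.86, so the size of the change is uncertain. The 4-library call was lost without control replicate 2 (edgeR adjusted p = 0.127, the highest of 12 alternatives, the lowest being 1.1e-05 in DESeq2), and the 6-library call without *daf-16(0)* replicate 2 or 3 or control replicate 2 or 3 (log2 fold change -5.19 without the last).

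*cnc-6* (WBGene00000560, chromosome III, 1763524 to 1764836, forward strand), which lies apart from the caenacin cluster, stood at 0.653, 0.769 and 3.89 CPM in *daf-16(0)* and at 10.4, 20.97 and 47.2 CPM in control. Control replicate 3 was again the highest library, and the genotypes did not overlap. It was called in 6 libraries (log2 fold change -3.87, SE 0.92, adjusted p = 0.0347) and not in 4 (log2 fold change -2.71, SE 0.90, adjusted p = 0.0868), and the 6-library call was lost without *daf-16(0)* replicate 1 or 2 or control replicate 2 or 3. In 6 libraries the log2 fold change was -5.19 with *daf-16(0)* replicate 3 left out and -3.12 without control replicate 3. In 4 libraries it was -3.13 without control replicate 1, and DESeq2 called the gene lower in 4 libraries (adjusted p = 0.0205). *cnc-4* (WBGene00000558, chromosome V, 1447195 to 1447707, forward strand), the caenacin with the highest control level per exon length, stood at 5.55, 13.8 and 16.8 CPM in *daf-16(0)* and at 118, 14.02 and 23.9 CPM in control. Control replicate 1 was far above every other library, and the remaining controls were near the *daf-16(0)* range. It was not called by edgeR in either comparison, while DESeq2 called it lower in both (adjusted p = 0.0470 in 4 libraries and 0.0405 in 6). In 4 libraries its log2 fold change went from -2.08 to 0.14 without control replicate 1 and to -2.93 without control replicate 2. *cnc-3* was the only tested caenacin with all *daf-16(0)* libraries above all controls, at 15.7, 11.4 and 9.77 CPM against 5.39, 0.228 and 0 CPM. The gene was not called in 4 libraries (log2 fold change 1.96, SE 1.21, adjusted p = 0.282) or in 6 (log2 fold change 2.76, SE 1.52, adjusted p = 0.263). *cnc-2*, *cnc-8* and *cnc-10* were not called, and *cnc-1*, *cnc-5* and *cnc-7* had too few counts to be tested.

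Among the fungus-induced genes 4 of 7 *fip* genes were tested, and 0 were called in either comparison. In each comparison 2 had an unadjusted p below 0.05, both lower, and DESeq2 called 1 lower in 4 libraries and 2 in 6. *fip-1* (WBGene00017695, chromosome III, 8639791 to 8640093, forward strand), the family's most abundant gene per exon length in control, stood at 0.653, 2.09 and 1.3 CPM in *daf-16(0)* and at 132, 0.114 and 9.29 CPM in control. Control replicate 1 had 931 counts and control replicate 2 had 1, so the control level rested on a single library. Without control replicate 1 the log2 fold change in 4 libraries went from -5.26 to 3.76, and without control replicate 2 the gene was called lower in 4 libraries (-6.28) and in 6 (-5.76). *fip-1* lies within *twk-7* on the other strand. *fip-6* stood at 5.81, 13.7 and 10.2 CPM in *daf-16(0)* and at 79.5, 26.8 and 23.2 CPM in control, with no overlap, and missed the threshold in 4 libraries (log2 fold change -2.12, SE 0.56, adjusted p = 0.0526) and in 6 (log2 fold change -2.12, SE 0.58, adjusted p = 0.0519). *fip-2* and *fip-5* overlapped between genotypes, *fip-4* was not tested, and *fip-3* and *fip-7* had no counts.

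The *fipr* genes formed the largest family, with 29 members of which 18 were tested and 10 had no counts in any library. None was called higher, although 1 in 4 libraries and 3 in 6 had an unadjusted p below 0.05, and DESeq2 called the same numbers higher. *fipr-13* (WBGene00010183, chromosome V, 10064503 to 10064939, forward strand) fell in 4 libraries. It stood at 5.16, 0 and 0.153 CPM in *daf-16(0)*, from 79, 0 and 2 counts, and at 15.8, 45.4 and 16.6 CPM in control. *daf-16(0)* replicate 1, which the 4-library comparison leaves out, was the highest of its genotype. Over the pooled counts of 4 libraries the ratio of control to *daf-16(0)* was 357 (exact 95% counting interval 98.4 to 2958), with an edgeR adjusted p of 0.00868, and in 6 libraries it was not called (log2 fold change -3.83, SE 1.44, adjusted p = 0.118) unless *daf-16(0)* replicate 1 was left out (edgeR adjusted p = 0.0194). *fipr-25* (WBGene00044518, chromosome V, 1957417 to 1957932, forward strand) had no counts in *daf-16(0)* and 2.41, 1.82 and 20.4 CPM in control. It was at least 24.9-fold lower in 6 libraries against the floor (edgeR adjusted p = 0.0349), was not called by edgeR in 4 (adjusted p = 0.0762), and lost the 6-library call whichever library was left out. DESeq2 called it lower in 4 libraries (adjusted p = 0.0277). Most of its control counts came from control replicate 3.

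*fipr-21* (WBGene00009621, chromosome X, 10304507 to 10304947, forward strand) was the most abundant *fipr* gene per exon length in both genotypes. It stood at 94.9, 69.6 and 86.1 CPM in *daf-16(0)* and at 164, 34.3 and 61.8 CPM in control. The controls enclosed the *daf-16(0)* values, and the gene was not called (log2 fold change -0.31, SE 0.66, adjusted p = 0.759). *fipr-5*, *fipr-7*, *fipr-10* and *fipr-11* had all *daf-16(0)* libraries above all controls at low levels, with no more than 7.14 CPM in any library, and each was at 0 in control replicates 2 and 3. *fipr-22*, *fipr-23* and *fipr-24*, a cluster on chromosome I, were highest in control replicate 3, at 19.96, 16.1 and 25.1 CPM. Their expected counts, and those of *fipr-4*, *fipr-6* and *fipr-8*, were not whole, so the level of each of these genes is uncertain.

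**Figure D4:**
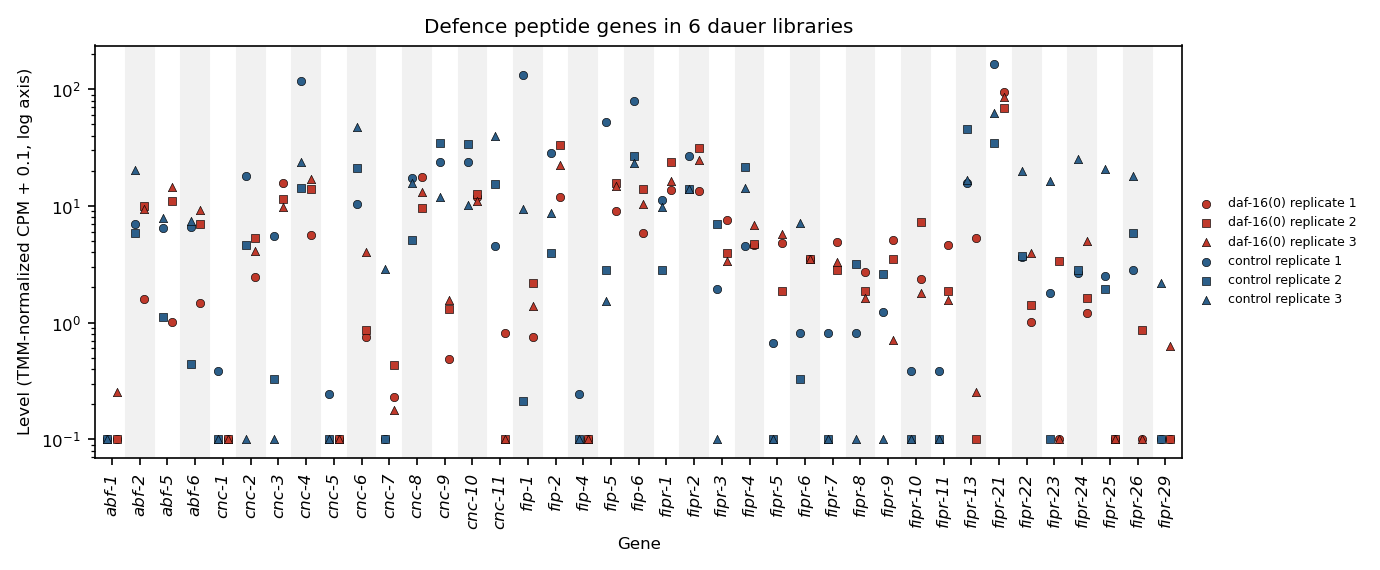
Level of each counted *abf*, *cnc*, *fip* and *fipr* gene in each library, in TMM-normalized CPM plus 0.1 on a log axis, with red for *daf-16(0)*, blue for control and a circle, square and triangle for replicates 1, 2 and 3. *cnc-6*, *cnc-9*, *cnc-11*, *fip-6*, *fipr-13*, *fipr-25* and *fipr-26* have all blue points above all red points, and the blue points of *fip-1* spread from 0.114 to 132 CPM.

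Genes of a family that lie side by side did not always share a direction. In all, 60 of the 92 genes lay in 21 clusters, in which neighbouring genes lay within 10 kb of each other. In the *lys-1*, *lys-2*, *lys-3* cluster on chromosome V, 5.72 kb long, *lys-1* rose and *lys-3* fell. In the cluster of *lys-4*, *lys-5* and *lys-6* on chromosome IV, 6.51 kb long, all 3 genes had their *daf-16(0)* levels above all controls. In the cluster of 5 *spp* genes on chromosome X, 5.42 kb long, *spp-3*, *spp-4* and *spp-5* lay above all controls in *daf-16(0)*, *spp-2* overlapped at 51.4, 25.4 and 16.02 CPM against 35.8, 5.58 and 17.6 CPM, and *spp-6* was not tested. In the cluster of 6 *cnc* genes on chromosome V, 7.60 kb long, *cnc-11* fell while *cnc-3* was higher in all *daf-16(0)* libraries without a call. *spp-20* fell, and its neighbour *spp-19* was at or below 1.96 CPM in every library.

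**Figure D5:**
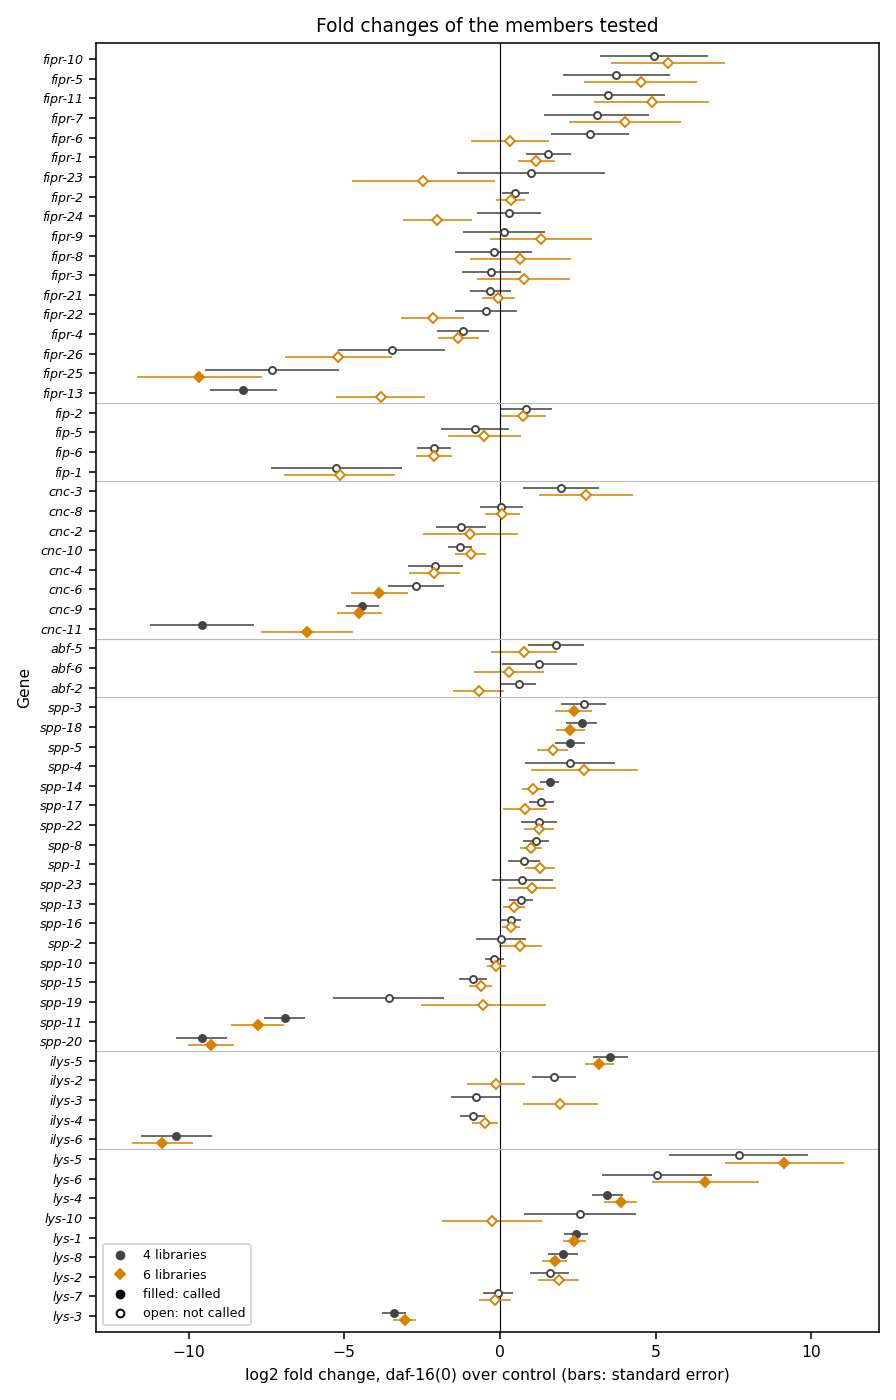
Log2 fold change of *daf-16(0)* over control for the 65 genes tested, in 4 libraries (grey circles) and 6 libraries (orange diamonds), with standard errors as bars and filled symbols for genes called. Fitted values of genes with no or almost no counts in a genotype, such as *ilys-6*, *lys-5*, *fipr-25* and *spp-20*, depend on the prior count and are no measure of size. The *lys* and *spp* blocks hold filled symbols on both sides of 0, and those of the *cnc* and *fipr* blocks lie left of 0.

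Of the 92 genes 15 had no counts in any library, and 12 more had too few to be tested. The 15 were 10 *fipr*, 2 *abf*, 2 *fip* and 1 *ilys* gene. Their median exon length was 153 bases, against 435 bases for the 77 counted genes. For these genes no difference was detectable at this depth. Of the 92 genes 23 overlapped another gene in the deposited coordinates, 20 of them a protein-coding one.

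Of 8 intestinal marker genes tested, 4 rose and 0 fell in 4 libraries (median log2 fold change 1.34), and 2 rose in 6. All genes tested gave 5.37% called higher and 9.59% lower in 4 libraries, and 5.06% and 7.39% in 6. For the 0 that fell, 0 had an unadjusted p below 0.05 and DESeq2 called 0. Their summed level was 2758, 3176 and 4017 CPM in *daf-16(0)* and 1927, 1692 and 1235 CPM in control, with no overlap and no marker at 0 in any library. In 4 libraries the gut peptide transporter *pept-1* rose (log2 fold change 3.04), as did the gut phosphatase *pho-1* (1.49). So did the proton pump subunit *vha-6* (1.32) and the gut actin *act-5* (1.35). In 6 libraries *vha-6* and *act-5* were not called (edgeR adjusted p = 0.0510 and 0.0501). *ges-1* and *elt-7* were called in neither comparison. The gut transcription factor *elt-2* stood at 21.6, 37.6 and 41.05 CPM in *daf-16(0)* and at 30.1, 41.1 and 23.6 CPM in control and was not called, nor was the gut intermediate filament gene *ifb-2*. Of 7 epidermal markers 1 rose and 1 fell in 4 libraries, with sums of 223 to 257 CPM in *daf-16(0)* and 225 to 366 CPM in control. In 6 libraries 2 rose and 0 fell, with 3 lower at an unadjusted p below 0.05 and 2 by DESeq2. Of 6 pharyngeal markers, which summed to 277 to 833 CPM in *daf-16(0)* and 437 to 809 CPM in control, 1 fell in 4 libraries and 0 were called in 6 (1 lower at an unadjusted p below 0.05, 0 by DESeq2). All 6 yolk genes rose in 4 libraries and 0 were called in 6, where 3 had an unadjusted p below 0.05 and DESeq2 called 1. The adult cuticle collagen gene *col-19* rose in both, and of 27 sperm *msp* genes tested 11 rose in 4 libraries and 18 in 6. The part of these markers in the values of the defence genes was not tested.

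Genes that act upstream of these effectors in worm immunity were read from lists written from general knowledge, with earlier results of these data known. Of 9 genes of the p38 MAPK cascade 1 fell in both comparisons. None was called higher (0 at an unadjusted p below 0.05, 0 by DESeq2). Over all genes tested, 9.59% were called lower in 4 libraries and 7.39% in 6, and 5.37% and 5.06% higher. With shares of this size, 1 call among 9 genes is no result about the list. The gene that fell was *skn-1*, a transcription factor of stress defence and a target of the kinase PMK-1, at 125, 166 and 189.6 CPM in *daf-16(0)* and 637, 423 and 319.5 CPM in control (-1.55 on the log2 scale in 4 libraries, edgeR adjusted p = 0.0323). *pmk-1* itself stood at 21.3, 41.1 and 35.3 CPM in *daf-16(0)* and at 41.3, 45.2 and 32.9 CPM in control and was not called. The list's median log2 fold change was -0.96 in 4 libraries and -0.78 in 6, against 0.11 and 0.09 over all genes tested. Of 10 genes of epidermal defence signalling 2 fell in 4 libraries and 1 in 6. *dcar-1*, a receptor that triggers epidermal immunity, fell in both (-1.71 and -1.56), and *tpa-1*, a protein kinase C, fell in 4 libraries (-2.16). No gene of that list was called higher, although in 4 libraries 1 had an unadjusted p below 0.05 and was called by DESeq2.

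Of 10 transcription factors with roles in immunity 2 fell in 4 libraries and 1 in 6, and none was called higher (0 at an unadjusted p below 0.05, 0 by DESeq2). *sta-1*, a STAT factor, fell in both (-2.25 and -2.20), with 18.1, 26.6 and 33.5 CPM in *daf-16(0)* and 151, 139 and 69.7 CPM in control. All its *daf-16(0)* libraries lay below all controls. *cebp-1*, a bZIP factor, fell in 4 libraries (-1.48). *hlh-30*, *pqm-1* and *zip-2* were not called. The share called lower over all genes tested was 9.59% in 4 libraries and 7.39% in 6.

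Other families of defence effectors were also mixed. Over all genes tested, 5.37% were called higher and 9.59% lower in 4 libraries, and 5.06% and 7.39% in 6. Of 9 *nlp* antimicrobial peptide genes, which the epidermis uses against fungi and wounds, 3 fell in both comparisons and none was called higher (1 in 4 libraries at an unadjusted p below 0.05 and 0 in 6, 0 by DESeq2). *nlp-34* stood at 13.1, 30.7 and 31.1 CPM in *daf-16(0)* and at 281, 265 and 142 CPM in control. Every control was several times the highest *daf-16(0)* library, and the log2 fold change was -3.12 in 4 libraries (edgeR adjusted p = 0.00552). *nlp-31* (-1.99) and *nlp-33* (-1.36) also fell, while *nlp-29*, the best studied of them, was not called. Of the 12 *irg* and *thn* genes 8 were tested, 1 rose in 4 libraries and 2 in 6, and none was called lower by edgeR (1 at an unadjusted p below 0.05, and DESeq2 called 1 in 4 libraries and 2 in 6). *thn-2*, a thaumatin-like gene, stood at 398, 166 and 99.4 CPM in *daf-16(0)* and at 21.01, 12.4 and 28.1 CPM in control. It rose in both comparisons (3.01 and 3.43 on the log2 scale), with no overlap between genotypes. *irg-7* was called higher in 6 libraries (2.33) and not in 4.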

How the data were processed

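mRNA-seq of hand-picked dauer larvae gave 6 libraries, 3 per genotype, grouped by the genotype in their labels. Libraries were made with a kit that does not mark strand. Adapter clipping by the authors used Trimmomatic 0.39, alignment to WBcel235 used STAR 2.4.2a, and the expected count of each gene came from RSEM (version 2.1 in the submitters' notes). These expected counts, deposited without normalization, were rounded to whole numbers, after which 8103772 to 17808548 counts per library lay on protein-coding genes. Tables of normalized counts and of the authors' own fold changes and p-values for 4 libraries were not used here.

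The 20191 protein-coding genes were filtered with edgeR's filterByExpr, scaled with TMM and tested with edgeR 4.0.16 (quasi-likelihood, Benjamini-Hochberg over all 13536 genes tested in 4 libraries and 13633 in 6) in R 4.3.3. Calls needed an adjusted p of at most 0.05 and a log2 fold change of at least 1 in size. SE is the log2 fold change divided by the square root of the test's F. CPM values use TMM factors of all 6 libraries. Folds against a genotype with no counts are bounds at 3 counts per library, and ratios with 1 to 3 counts are given with exact 95% counting intervals. Alternatives were RLE scaling, other count filters, DESeq2 1.42.0, other call rules, genes of all biotypes, a replicate block and leaving out each library.

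The genes, lists and tests were chosen with earlier results of these data known. Genes given in full were all those called, the most abundant control gene of each family per exon length, *lys-7* and *spp-1*, 26 in all. The further members named were picked for their place in a cluster or after their values were seen. Coordinates are the deposited ones, on WBcel235. Exon lengths come from Ensembl release 115, which lists all 92 genes, 25 of them with the same coordinates. Between replicates of a genotype, counts differed by far more than sampling noise (chi-square per degree of freedom 55.7 to 310.0), so no library was counted as a repeat of another. The p-values weigh the difference between genotypes against the spread between these libraries, as estimated with information shared over all genes tested.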

Additional observations from a re-analysis of the deposited data

How the results depend on the processing

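The number of members called depended on the test and the libraries. The share called over all genes tested is not given for these alternatives, so their numbers are no result about the members. In 4 libraries, 7 called higher became 11 without a filter on low counts, 13 with DESeq2 and 3 to 20 when single libraries were left out, and 7 called lower became 11 without the filter and 11 with DESeq2. In 6 libraries, 8 called higher became 14 with DESeq2 and 2 to 10 when single libraries were left out, and 8 called lower became 13 with DESeq2 and 4 to 7. Replicate numbers are shared between genotypes. Same-numbered libraries did not deviate together (correlations of -0.12, -0.0063 and -0.31). These are deviations from means of 3 libraries per genotype, so they cannot settle whether a shared number means a shared preparation. With the numbers as a replicate block, 2 members were called higher and 5 lower (*lys-1*, *lys-5*, *lys-6*, *lys-8*, *spp-3*, *spp-18*, *cnc-9*, *cnc-11* and *fipr-25* lost their calls). No library correlated best with the library of its own number. Leaving out a library of the 4 leaves 1 sample in a genotype, which is then assumed to vary like the other genotype.

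Among the 26 genes given in full, the fitted signs of 6 that were not called turned. *abf-2* went to -0.68 and *ilys-3* to 1.94 when the 4 libraries became 6, and *fipr-21* to 0.24 in 6 libraries with the replicate block. *fipr-3*, *fipr-8*, *fipr-23*, *fipr-24*, *ilys-2* and *lys-10*, called in neither comparison, also differed in sign between 4 and 6 libraries. Leaving out single libraries gave, in 4 libraries, -2.93 to 0.14 for *cnc-4*, -6.28 to 3.76 for *fip-1*, -1.05 to 1.19 for *fipr-21*, -2.55 to 0.035 for *ilys-3* and -0.60 to 0.76 for *lys-7*. In 6 libraries it gave -1.02 to 0.11 for *abf-2*, -0.45 to 0.80 for *fipr-21*, -0.98 to 2.50 for *ilys-3* and -0.50 to 0.47 for *lys-7*. The cause was not tested. *lys-3*, *lys-4*, *ilys-5*, *ilys-6*, *spp-11* and *spp-20* kept direction and call in all 12 alternatives in 4 libraries and all 11 in 6.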
